A study of Homo sapiens with 72 samples.

Results

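Polyamines (putrescine, spermidine and spermine) are small, positively charged molecules that bind RNA, and growing cells keep their concentration within narrow limits. ODC1, ornithine decarboxylase, makes putrescine from ornithine. AMD1, S-adenosylmethionine decarboxylase, provides the aminopropyl groups that the spermidine synthase SRM and the spermine synthase SMS add to it. Antizymes (OAZ1, OAZ2) bind ODC1 and deliver it to the proteasome, the antizyme inhibitor AZIN1 is an inactive ODC1 homologue that titrates antizyme away, and the acetyltransferase SAT1 marks spermidine and spermine for oxidation or export. Much of this control is exerted during translation: antizyme is made only when ribosomes shift frame, and a short reading frame upstream of AMD1 lowers its translation when polyamines are abundant.

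The mRNAs of these 8 genes, ODC1, AMD1, SRM, SMS, OAZ1, OAZ2, AZIN1 and SAT1, were chosen by symbol from a count table of 44659 genes, and all 8 were found and passed the filter on low counts in every comparison. The table holds 72 QuantSeq libraries, which count the 3′ ends of polyadenylated transcripts, from cytoplasmic RNA of A375, a human melanoma cell line with an activating BRAF mutation. Cells labelled siCTU2 received a pool of 2 siRNAs against CTU2, a subunit of the enzyme that thiolates the wobble uridine of the tRNAs for lysine, glutamate and glutamine, and cells labelled siGL2 received a control siRNA, both for 42 h. Cells labelled mQ were kept for 18 h in medium without glutamine, and cells labelled pQ in the control medium. Each of these 4 conditions was followed for 0, 3 and 5 h with the transcription inhibitor triptolide alone (25 µM, T arm) or with the translation inhibitor cycloheximide added (100 µg/ml, TCHX arm), which gave 24 groups of 3 libraries. No source used here says that the 3 libraries of a group came from separate cultures on separate days, so p-values measure the spread between these libraries, which may be technical. Both siRNAs and both media were tested in 1 cell line, so what is described is the response of that line.

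Library totals ran from 5987692 to 15534331 counts. CTU2 mRNA lay at 2.95, 1.01 and 1.32 CPM (counts relative to the total of the library) in the siCTU2 libraries at 0 h in the T arm and at 21.1, 22.0 and 24.2 CPM in the siGL2 libraries. The knockdown lowered it by 3.71 log2 units (log2 fold change −3.71, SE 0.28, adjusted p = 9.16e-09 in the edgeR test). The short-lived transcripts JUN and MYC fell over 3 h in the T arm of all 4 conditions. On the scale used below for decay, their log2 changes ran from −5.41 to −4.46 (JUN) and from −6.36 to −4.30 (MYC). Of the melanocyte-lineage markers, SOX10 (25.4 to 424 CPM) and S100B (162 to 496 CPM) were present in every library, whereas MLANA and TYR stayed below 1.48 CPM. In 3 groups a library stands apart, replicate 3 in each case: mQ in the T arm at 5 h, pQ in the TCHX arm at 0 h and siCTU2 in the TCHX arm at 5 h. These 3 libraries have counts for 19896 to 20364 genes, against 15507 to 17495 genes in the other 69, and hold 367 to 479 counts of PTPRC and 351 to 500 of CD3E, both leukocyte genes, against at most 6 and 3 counts elsewhere. In the siCTU2 library of these, CTU2 was at 10.4 CPM, against 0.13 to 2.95 CPM in the other siCTU2 libraries. In the mQ library, JUN was at 25.9 CPM and MYC at 8.23 CPM after 5 h of triptolide. In its partners each was at 1.18 and 0.225 CPM. The tests that use the 3 libraries with extra genes were repeated without them. In the repeats for decay and cycloheximide, the scaling factors were still those computed from all libraries. The replicate 3 libraries at 5 h also correlated less with their partners (r = 0.897 to 0.945 across 9663 genes) than other replicate pairs did (0.952 to 0.990), so decay was read at 3 h.

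The frameshift sites of the antizymes and the upstream reading frame of AMD1 are printed because translation acts there on these transcripts and the TCHX arm interrupts translation. In OAZ1 (chromosome 19, 2269509 to 2273490, plus strand, GRCh38) and OAZ2 (chromosome 15, 64687573 to 64703281, minus strand), the annotated coding sequence leaves out 1 genomic base, where the ribosome moves into the +1 frame. The windows of 28 bases around that base, OAZ1 at chr19:2271431-2271458 on the plus strand and OAZ2 at chr15:64691500-64691527 on the minus strand, carry the same site of TCC, the stop codon TGA and T, shown in capitals, in which the first T after TCC is the base skipped.
OAZ1: cggtggtgcTCCTGATgcccctcaccca
OAZ2: ctgtggtgcTCCTGATgcccctcaccca
In AMD1 (chromosome 6, 110874770 to 110898879, plus strand, GRCh38), the RefSeq promoter window of 300 bases (GRCh38.p14, chr6:110874535-110874834, plus strand) ends 50 bases into the transcript and contains the whole upstream reading frame, shown in capitals. It begins at transcript base 12 and has 6 codons before its stop.
AMD1: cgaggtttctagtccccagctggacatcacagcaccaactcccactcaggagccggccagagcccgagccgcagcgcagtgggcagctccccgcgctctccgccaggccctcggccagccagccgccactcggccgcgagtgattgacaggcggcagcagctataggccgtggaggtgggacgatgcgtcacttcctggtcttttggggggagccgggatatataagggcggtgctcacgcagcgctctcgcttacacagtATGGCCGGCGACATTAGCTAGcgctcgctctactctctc
An upstream reading frame that closes before the main start codon was found in the GENCODE canonical transcripts of ODC1 (1), AMD1 (1), OAZ2 (2), AZIN1 (3) and SAT1 (1), and in none of SRM, SMS and OAZ1. It was found in 33.7% of 9201 genes with a mean of at least 50 counts, so it is a common feature.

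The remaining genes lie on chromosome 2 (ODC1, 10439968 to 10448327, minus strand), chromosome 1 (SRM, 11054584 to 11060020, minus strand), chromosome X (SMS, 21940709 to 21994837, and SAT1, 23783173 to 23786210, both plus strand) and chromosome 8 (AZIN1, 102826111 to 102893864, minus strand). The codons AAA, GAA and CAA, which are read by the tRNAs that CTU2 helps to modify, made up 11.2% of the codons of SMS, 10.5% of SAT1 and 10.3% of AZIN1, against a median of 6.74% over the 9201 genes. They made up 7.59% of ODC1 and 7.49% of AMD1, and only 3.70% of OAZ2, 2.19% of OAZ1 and 1.32% of SRM. The pentamer ATTTA, the core of AU-rich elements that destabilise mRNAs, occurred 11 times after the stop codon of AZIN1 and 6 times in AMD1, 2 times each in OAZ2 and SAT1, once in SRM, SMS and OAZ1 and not at all in ODC1. The median over the 9201 genes was 3, and 76.2% had at least 1.

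At 0 h, before transcription was blocked, CTU2 knockdown lowered AMD1 and raised SMS, OAZ1 and AZIN1. Of the 8 genes, 4 passed the test (edgeR quasi-likelihood test with Benjamini-Hochberg adjustment, adjusted p under 0.05), 3 higher and 1 lower. In the same test 36% of the 12292 genes passed, 17.8% higher and 18.2% lower, so that a large share of the transcriptome moved along with them. The median of the 8 log2 fold changes was 0.13 against 0.00 for all genes.

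AMD1 lay at 132.0, 165 and 132 CPM in the 3 siCTU2 libraries and at 304.6, 289 and 287 CPM in the siGL2 libraries. The groups did not overlap, and AMD1 fell by 1.04 on the log2 scale (SE 0.09, adjusted p = 3.42e-08), to 0.486 of the control level. In bulk RNA, fewer cells with a transcript and less of it per cell cannot be told apart. SMS, which makes spermine, was at 1277, 1225 and 1252 CPM after the knockdown and at 896, 920.2 and 912 CPM in control cells. It rose 1.37-fold (log2 fold change 0.46, SE 0.05, adjusted p = 2.90e-06), with replicates that differed from each other by far less than the groups did. SRM, the synthase of the step before, had 436, 428 and 390 CPM in siCTU2 libraries and 451, 371 and 419 CPM in siGL2 libraries, so that the groups overlapped fully (log2 fold change 0.01, SE 0.08, adjusted p = 0.917).

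Of the regulators, OAZ1 was at 1108, 1215 and 992 CPM in siCTU2 cells and at 855, 909 and 793 CPM in siGL2 cells. Every knockdown library lay above every control library, and the increase was 1.29-fold (log2 fold change 0.37, SE 0.07, adjusted p = 0.000534). AZIN1 was at 102, 95.6 and 86.6 CPM against 73.0, 81.1 and 65.0 CPM, again without overlap, and also rose 1.29-fold (log2 fold change 0.37, SE 0.10, adjusted p = 0.00647). The estimates for OAZ1 and AZIN1 were thus alike in the T arm, but a difference between the genes was not tested. The other antizyme, OAZ2, had the opposite sign there (log2 fold change −0.19) and was not called. In the TCHX arm at 0 h, where cycloheximide had only just been added, AMD1 (−0.83), SMS (0.46) and OAZ1 (0.37) were called again, but AZIN1 (0.13, adjusted p = 0.41) was not.

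ODC1, the first enzyme of the pathway, had 120.1, 120.1 and 127 CPM in siCTU2 libraries and 146, 139.6 and 112 CPM in siGL2 libraries. The knockdown values lay within the range of the controls (log2 fold change −0.12, SE 0.09, adjusted p = 0.349). In the TCHX arm ODC1 did pass the test, at −0.29 (adjusted p = 0.0224). SAT1 (log2 fold change 0.25, SE 0.11, adjusted p = 0.0819) and OAZ2 (−0.19, SE 0.08, adjusted p = 0.0564) missed the threshold. For OAZ2 the sign depended on the arm, since in the TCHX arm it was 0.13.

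**Figure D1:**
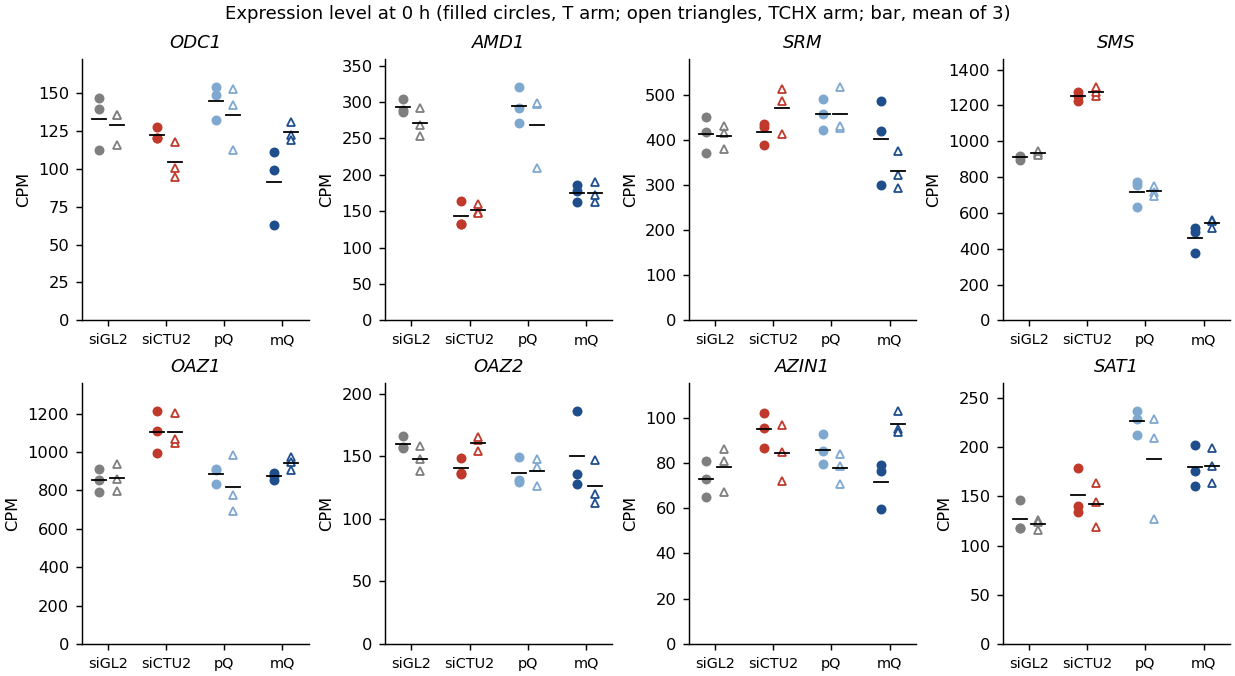
Expression level (CPM, linear axes from 0) of the 8 polyamine genes at 0 h in the 4 conditions, with 1 symbol per library, filled circles for the T arm, open triangles for the TCHX arm and a bar at the mean of 3. AMD1 is lower in siCTU2 than in siGL2 and lower in mQ than in pQ, whereas SMS is higher in siCTU2 (1225 to 1277 CPM in the T arm) and lower in mQ.

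Without glutamine, the mRNAs of 3 of the 4 biosynthetic enzymes fell at 0 h: AMD1, ODC1 and SMS. Of the 8 genes, 3 passed the test, all lower, beside 12.4% of the 12374 genes tested that were called lower and 24.8% called in either direction. The median log2 fold change was −0.24 for the 8 genes and 0.01 for all genes.

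AMD1 was at 186, 178 and 163 CPM in mQ libraries and at 321, 271 and 292 CPM in pQ libraries. The groups stood clearly apart (log2 fold change −0.70, SE 0.10, adjusted p = 0.000948), and the level without glutamine was 0.617 of that in the control medium. SMS had 518, 374.5 and 491 CPM against 634, 754 and 770.1 CPM, also without overlap (−0.59, SE 0.13, adjusted p = 0.00650). ODC1 had 99.1, 62.8 and 111 CPM against 154, 149 and 132 CPM (−0.62, SE 0.17, adjusted p = 0.0219). The ODC1 call was less firm than the other 2. In the TCHX arm its difference was −0.11 (adjusted p = 0.632), and it missed the threshold when mQ replicate 1 (adjusted p = 0.0566), pQ replicate 1 (0.0867) or pQ replicate 2 (0.0806) was left out. The TCHX arm at 0 h contains 1 of the 3 libraries with extra genes, and without it ODC1 was at −0.22 (adjusted p = 0.107), AMD1 at −0.74 and SMS at −0.40, the last 2 being called.

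SRM, OAZ1, OAZ2, AZIN1 and SAT1 did not pass the test, with log2 fold changes from −0.28 for SAT1 (SE 0.11, adjusted p = 0.0875) to 0.19 for OAZ2 (SE 0.14, adjusted p = 0.356). AZIN1 had opposite signs in the 2 arms, −0.21 in the T arm and 0.34 in the TCHX arm (adjusted p = 0.0843), where the mQ libraries were at 95.3, 93.6 and 103 CPM and the pQ libraries at 78.5, 84.1 and 70.7 CPM. SRM, in contrast, was called in the TCHX arm (−0.46, adjusted p = 0.0458) but not in the T arm (−0.13, adjusted p = 0.556). Without the library with extra genes, SRM in the TCHX arm was at −0.49 (edgeR adjusted p = 0.00136).

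Set side by side in the 2 experiments, AMD1 was called lower in both, and SMS was called in both with opposite signs, higher after CTU2 knockdown and lower without glutamine. In the T arm, OAZ1 and AZIN1 were called for the knockdown and not for the medium, and ODC1 the reverse. In the TCHX arm, by contrast, ODC1 was called for the knockdown and not for the medium, and AZIN1 for neither. The difference between the 2 experiments was not tested. MYC, a transcription factor that is known to drive polyamine enzyme genes, was lower in both comparisons: 7.17, 4.80 and 5.13 CPM against 15.4, 11.97 and 9.51 CPM for siCTU2 and siGL2 (log2 fold change −1.12, SE 0.24, adjusted p = 0.00132), and 9.90, 2.66 and 7.19 CPM against 17.1, 19.1 and 19.0 CPM for mQ and pQ (−1.45, SE 0.33, adjusted p = 0.00906). Its part in the polyamine gene changes was not tested. The hexamer CACGTG, which reads the same on both strands and is the E-box that MYC and its partner bind, was searched in the RefSeq promoter windows of 7 of the 8 genes and found in SRM alone, against 7.43% of 27305 promoters. Each window has 300 bases around the transcript start, and the rest of the genes, including introns outside the windows, was not searched. SRM was not called at 0 h in the T arm of either experiment. In the TCHX arm at 0 h it was called lower without glutamine (log2 fold change −0.46, edgeR adjusted p = 0.0458). For the knockdown in that arm, SRM was at 0.21 and was not called (edgeR adjusted p = 0.0556). Its promoter (GRCh38.p14, chr1:11059969-11060268, minus strand) is shown with the hexamer in capitals, 199 bases before the transcript start.
SRM: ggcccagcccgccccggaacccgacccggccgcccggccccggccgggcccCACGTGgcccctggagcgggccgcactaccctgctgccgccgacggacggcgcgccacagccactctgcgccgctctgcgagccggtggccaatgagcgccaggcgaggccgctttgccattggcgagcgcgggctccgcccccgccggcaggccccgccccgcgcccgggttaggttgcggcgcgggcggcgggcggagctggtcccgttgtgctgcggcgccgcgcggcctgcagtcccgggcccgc

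**Figure D2:**
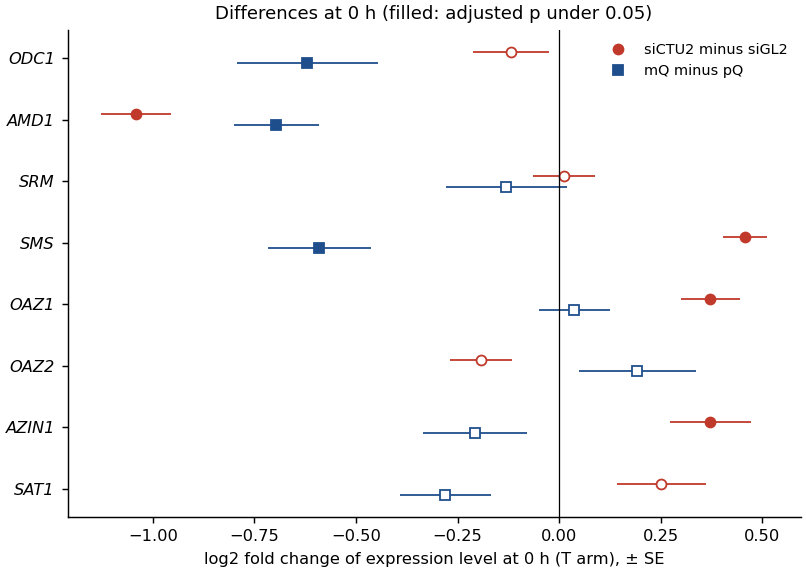
Log2 fold change at 0 h in the T arm (x axis, ± SE) of each polyamine gene for CTU2 knockdown (red circles) and for glutamine withdrawal (blue squares), with filled symbols for an adjusted p under 0.05. AMD1 lies left of 0 in both comparisons (−1.04 and −0.70), and SMS lies right of 0 for the knockdown (0.46) and left of 0 without glutamine (−0.59).

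Over the 4 conditions in the T arm at 0 h, the order of the levels differed from gene to gene. AMD1 was highest in pQ and siGL2, at means of 295 and 293 CPM with overlapping replicates, then clearly lower in mQ (175) and siCTU2 (143), whose replicates overlapped each other. SMS fell in 4 separate steps, from siCTU2 (1251 CPM) over siGL2 (909.5) and pQ (719) to mQ (461), with no overlap between neighbours. SAT1 stood highest in pQ (226 CPM), apart from mQ (179), followed by siCTU2 (151) and siGL2 (127) with overlaps between the neighbours. OAZ1 was apart only at the top, with siCTU2 at 1105 CPM and the other 3 conditions between 852 and 884 CPM. ODC1 was apart only at the bottom, in mQ (91.0 CPM). For SRM, OAZ2 and AZIN1 every pair of neighbours overlapped. Transfection and medium change cannot be told apart from the treatments in an order that runs across both experiments.

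The rate at which the mRNAs disappeared was read from the T arm between 0 and 3 h, after scaling to genes whose share of the library rose under triptolide (197 genes in the siRNA experiment, 81 in the medium experiment, none of them a polyamine gene). On this scale nearly all mRNAs fall, and the median log2 change of all genes tested was −0.47 in siGL2, −0.55 in siCTU2, −0.69 in pQ and −0.71 in mQ. TMM scaling, which sets the median near 0, moved these medians to between −0.002 and 0.014, so each gene is also given against the median.

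AMD1 and SAT1 fell in all 4 conditions, with the lowest values of the 8 genes, and AMD1 had the larger change in each. Of the 8 genes, 2 passed the test in siCTU2, 2 in siGL2, 5 in mQ and 5 in pQ, all lower, beside 36%, 28.6%, 55.4% and 55.2% of genes called lower in the same order of conditions. In either direction 37.2%, 29.7%, 56.5% and 56.3% of genes were called, and higher alone 1.21%, 1.05%, 1.1% and 1.06%. The members' medians, −0.42, −0.41, −0.57 and −0.59, were above those of all genes.

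Shares left are relative to the 0 h library of the same arm and replicate number. After 3 h of triptolide, 27.7%, 30.2% and 27.5% of the initial AMD1 mRNA was left in siGL2 cells, and 19.5%, 19.7% and 17.4% in siCTU2 cells. In pQ cells 29.3%, 35.9% and 27.0% was left, and in mQ cells 24.6%, 24.9% and 15.1%. The range in each of the 2 treated conditions lay below that of its control. The corresponding log2 changes were −1.81 (SE 0.18, adjusted p = 3.07e-06) in siGL2, −2.40 (SE 0.33, adjusted p = 5.10e-05) in siCTU2, −1.71 (SE 0.22, adjusted p = 1.39e-05) in pQ and −2.21 (SE 0.48, adjusted p = 0.00182) in mQ. If the loss is taken as a single exponential, these slopes correspond to half-lives of 1.65, 1.25, 1.76 and 1.36 h. The 1-SE bounds ran from 1.503 to 1.84 h in siGL2 and from 1.098 to 1.45 h in siCTU2. They overlapped between pQ (1.56 to 2.01 h) and mQ (1.11 to 1.73 h). AMD1 was not called in the direct tests of the difference, given below. The half-lives also depend on the scaling, since TMM gave smaller slopes of −1.33, −1.86, −1.02 and −1.49 in the same order. Relative to the median gene, AMD1 was lower by 1.34, 1.85, 1.01 and 1.501 log2 units in the same order, and it stayed called with TMM scaling in each condition.

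At 5 h, AMD1 was down to 13.04% ± 1.31 (SD, n = 3) in siGL2, 8.68% ± 1.47 in siCTU2 and 13.4% ± 4.58 in pQ. In mQ the first 2 replicates held 8.61% and 11.6%, but replicate 3 held 59.5%. This is the mQ library with extra genes, and it alone had 2063 AMD1 counts, where the other 2 had 164 and 267.

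SAT1 was left at 39.7% ± 9.78 in siGL2, 33.5% ± 6.64 in siCTU2, 40.5% ± 7.55 in pQ and 45.8% ± 9.24 in mQ after 3 h (SD, n = 3). Its log2 changes were −1.35 (SE 0.21), −1.61 (SE 0.18), −1.31 (SE 0.23) and −1.16 (SE 0.18), with edgeR adjusted p from 9.49e-06 to 0.000379. At 5 h SAT1 was at 33.6%, 26.8%, 41.5% and 47.6%, close to the 3 h values. Every one of these calls held when a replicate or the filter on low counts was left out, but with TMM scaling SAT1 in mQ was at −0.42 (adjusted p = 0.0896).

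On average, the other 6 genes kept most of their mRNA for 3 h. The lowest means were 54.9% for AZIN1 in pQ (replicate 3 at 39.9%) and 58.0% for OAZ2 in mQ (replicate 2 at 39.4%). In the siRNA experiment none of the 6 genes passed the test. Their log2 changes lay between −0.49 and −0.16 in siGL2 and between −0.63 and −0.16 in siCTU2. In mQ, SRM (−0.72, SE 0.22, adjusted p = 0.0114), OAZ1 (−0.41, SE 0.14, adjusted p = 0.0206) and OAZ2 (−0.84, SE 0.27, adjusted p = 0.0156) were called. In pQ, SMS (−0.57, SE 0.21, adjusted p = 0.0281), OAZ1 (−0.54, SE 0.17, adjusted p = 0.0148) and AZIN1 (−0.85, SE 0.30, adjusted p = 0.0241) were called. OAZ1 in both media and SMS in pQ changed less than the median gene did. SRM in mQ was 0.01 below that median, OAZ2 in mQ 0.13 below and AZIN1 in pQ 0.16 below. The same genes were called in siCTU2, mQ and pQ without the libraries with extra genes. With TMM scaling all 6 calls were lost, and OAZ1 in mQ (0.32), OAZ1 in pQ (0.14) and SMS in pQ (0.12) changed sign. At 5 h in the T arm, SRM was at 83.0%, 106% and 175% of its 0 h level in siCTU2 and at 81.6%, 109% and 143% in siGL2, with replicate 3 the highest in both.

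**Figure D3:**
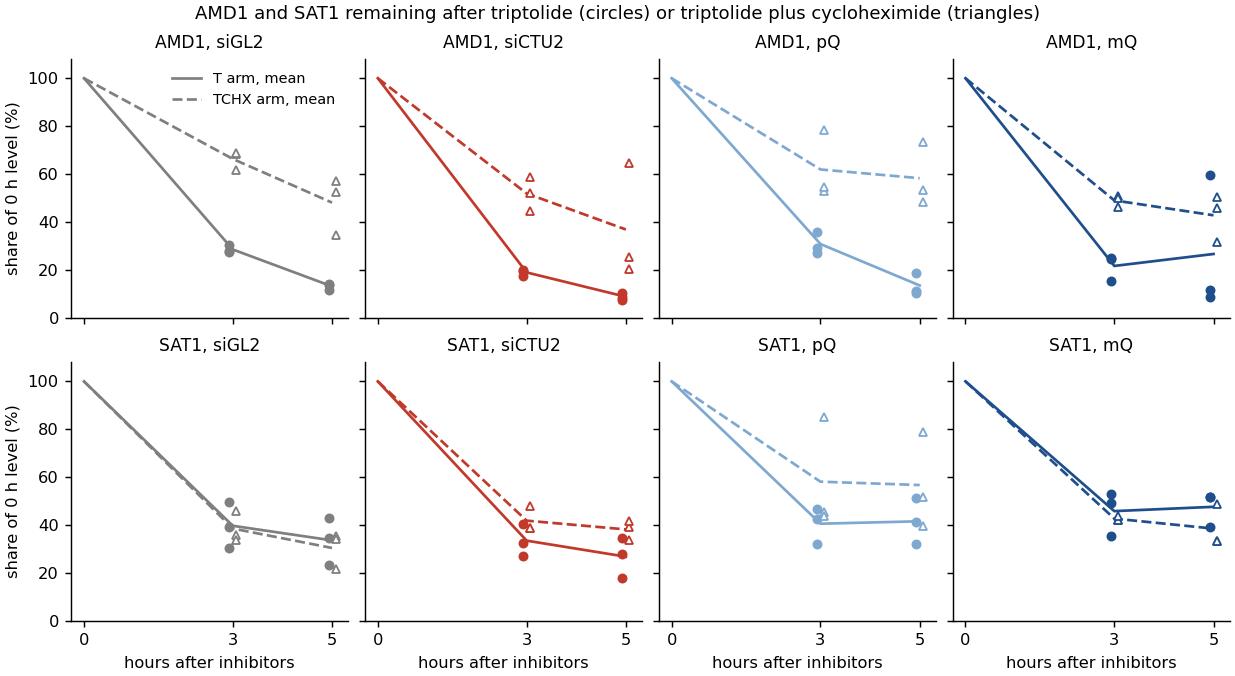
Share of the 0 h level left (y axis, %, scaled to stable genes) for AMD1 (top row) and SAT1 (bottom row) at 3 and 5 h (x axis) in the 4 conditions, with 1 symbol per replicate, circles and solid lines for the T arm and triangles and dashed lines for the TCHX arm (lines join the means of 3). The AMD1 arms separate at 3 h in every condition, the SAT1 arms overlap in every condition, and the circle at 59.5% for AMD1 in mQ at 5 h is the library with extra genes. The highest pQ triangles (78.4% and 85.0% at 3 h) are relative to the 0 h library with extra genes.

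To ask whether this loss needed translation, the TCHX arm was compared with the T arm over 3 and 5 h. AMD1 mRNA was higher with cycloheximide in siGL2, siCTU2 and pQ cells. It was the 1 of the 8 genes that passed in each of these, beside 12.1%, 21.0% and 12.3% of all genes called higher and 12.7%, 21.1% and 12.7% called in either direction. In mQ none passed with edgeR (1 at an unadjusted p under 0.05, and 1, AMD1, with DESeq2), beside 5.12% of all genes called higher and 5.24% in either direction.

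After 3 h, the TCHX libraries still held 68.4%, 68.9% and 61.5% of the initial AMD1 mRNA in siGL2 and 52.2%, 58.8% and 44.6% in siCTU2. They held 52.8%, 54.4% and 78.4% in pQ and 50.8%, 50.1% and 46.0% in mQ. The pQ value of 78.4% is relative to the 0 h library with extra genes, in which AMD1 was at 209 CPM beside 297 and 299 CPM in its partners. In each condition every TCHX library lay above every T library at this time. The log2 cycloheximide effect over both times was 1.47 in siGL2 (SE 0.13, adjusted p = 6.12e-07), 1.78 in siCTU2 (SE 0.23, adjusted p = 1.90e-05), 1.33 in pQ (SE 0.15, adjusted p = 5.96e-06) and 0.97 in mQ (SE 0.33, adjusted p = 0.0999). These are 2.77-fold, 3.43-fold, 2.51-fold and 1.963-fold higher levels with cycloheximide, at the 96.0th, 96.6th, 94.7th and 93.6th percentiles of all genes.

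Of these 4 values, 2 contain a library with extra genes. In mQ the library lies in the T arm at 5 h, and without it the effect was 1.67 (adjusted p = 1.99e-07). In siCTU2 it lies in the TCHX arm at 5 h, with 64.5% of the initial AMD1 left against 20.4% and 25.5% in its partners, and without it the effect was 1.42 (adjusted p = 1.79e-06). At 3 h alone the effect was 1.14 in siGL2, 1.47 in siCTU2, 0.77 in pQ and 1.22 in mQ, and the last 2 missed the threshold (adjusted p = 0.0596 and 0.227). AMD1 mRNA was below its 0 h level with cycloheximide too: at 5 h the TCHX means were 48.0% ± 11.9, 36.8% ± 24.1, 58.2% ± 13.2 and 42.7% ± 9.83 (SD, n = 3) in siGL2, siCTU2, pQ and mQ.

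For SAT1, the other gene called for decay in all 4 conditions, no cycloheximide effect passed the test. Its log2 effects were −0.09 (SE 0.15) in siGL2, 0.28 (SE 0.13) in siCTU2, 0.05 (SE 0.16) in pQ and −0.14 (SE 0.12) in mQ, with edgeR adjusted p from 0.137 to 0.940. Without the libraries with extra genes they were 0.20 in siCTU2, 0.05 in pQ and −0.14 in mQ, with adjusted p from 0.370 to 0.904. With all libraries, the 95% intervals of the SAT1 effects reached at most 0.53, under the lowest called AMD1 effect of 1.33 and its interval, which began at 1.03. The AMD1 effect in mQ, which was not called, had an interval from 0.32 to 1.62. That interval began below 0.53 but above the SAT1 interval in mQ (−0.38 to 0.10). In pQ, replicate 3 of the TCHX arm held 85.0% of the initial SAT1 at 3 h, beside 45.5% and 43.8%, again relative to the 0 h library with extra genes, a library that the log2 effects do not compare. The other 6 genes had effects between −0.32 and 0.16 in all 4 conditions, and none passed the test, with or without those libraries. OAZ1 and OAZ2, whose translation uses the frameshift, were among them: OAZ1 lay between −0.21 and −0.03 and OAZ2 between −0.32 and 0.15. The median of the 8 genes was below that of all genes in each condition (−0.05 against 0.05 in siGL2, −0.05 against 0.22 in siCTU2, −0.08 against 0.06 in pQ and −0.004 against 0.05 in mQ).

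**Figure D4:**
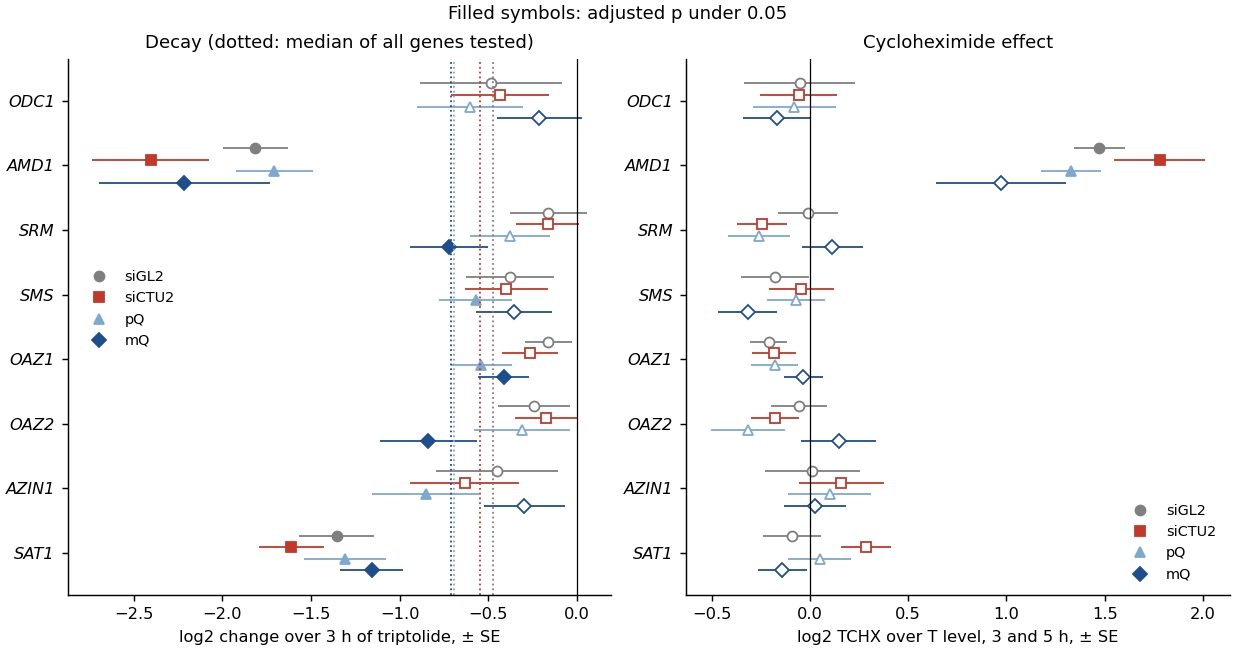
Left, log2 change of each polyamine gene over 3 h of triptolide (x axis, ± SE), with dotted lines at the median of all genes tested in each condition. Right, log2 level in the TCHX arm over that in the T arm at 3 and 5 h (± SE). Filled symbols mark an adjusted p under 0.05: AMD1 and SAT1 lie left of the dotted lines in all 4 conditions, and AMD1 is the 1 gene with effects from 0.97 to 1.78 on the right, the mQ value of 0.97 being open.

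Whether CTU2 or glutamine changed the decay or its dependence on translation was tested as a difference of these differences, with all 36 libraries of an experiment. None of the 8 genes passed in any of the 4 tests with edgeR or DESeq2, and with all libraries none had an unadjusted p under 0.05. With all libraries the tests called few genes: 0.0% for the decay difference in both experiments, 0.379% for the cycloheximide difference in the siRNA experiment and 0.0% in the medium experiment. For the decay difference, 414 and 356 genes had an unadjusted p under 0.05 and DESeq2 called 8 and 2, and for the cycloheximide difference of the medium experiment these numbers were 525 and 2. These counts depended on replicate 3, apart from the cycloheximide difference of the siRNA experiment. That test called 54 genes with replicate 3 (50 higher and 4 lower) and 54 without it (39 higher and 15 lower). Without replicate 3, the medium experiment gave 283 called genes for the decay difference (188 higher and 95 lower, of 14132). It gave 301 for the cycloheximide difference (297 higher and 4 lower), and the siRNA experiment gave 22 and 54. None of the 8 genes was among them, but 4 had an unadjusted p under 0.05 for the decay difference of the medium experiment and 1 in each of the other 3 tests. When the libraries with extra genes alone were left out, the decay difference called 22 genes in the siRNA experiment (1 of the 8 genes at an unadjusted p under 0.05) and 0 in the medium experiment, and the cycloheximide difference called 36 and 82, again with none of the 8.

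AMD1 fell by 0.59 log2 units more over 3 h after CTU2 knockdown than in control cells (SE 0.38), a value that did not pass the test, with a 95% interval from −1.33 to 0.15. Without glutamine the difference was −0.51 (SE 0.54, interval −1.56 to 0.55). The difference in the cycloheximide effect on AMD1 was 0.31 (SE 0.27, interval −0.22 to 0.84) for the knockdown and −0.35 (SE 0.38, interval −1.10 to 0.39) for glutamine. Both of the latter changed sign without the libraries with extra genes, to −0.05 and 0.35. For the other 7 genes the decay differences lay between −0.53 and 0.56 and the cycloheximide differences between −0.25 and 0.46. AMD1, lower at 0 h in both treated conditions, thus had a decay difference whose interval included 0 in both.

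The translation-dependent decay (TDD) index expresses the same comparison as a share of the initial mRNA: the T arm level is subtracted from the TCHX level, and the result is divided by the mean 0 h level of both arms. An index of 0 means that cycloheximide makes no difference, and a larger index means that it keeps more of the mRNA. Averaged over 3 and 5 h, the AMD1 index was 0.375, 0.381 and 0.269 in the siGL2 replicates and 0.227, 0.243 and 0.461 in the siCTU2 replicates. It was 0.302, 0.277 and 0.347 in pQ and 0.363, 0.302 and 0.015 in mQ. The means were 0.342, 0.311, 0.309 and 0.227 in siGL2, siCTU2, pQ and mQ. The lowest mQ value and the highest siCTU2 value come from the replicates with a library with extra genes. The differences were −0.03 (SE 0.09) for the knockdown and −0.08 (SE 0.12) for glutamine (limma adjusted p = 0.912 and 0.998). Without the values that use those libraries they were −0.11 (adjusted p = 0.713) and 0.04 (adjusted p = 0.689), so that the sign for glutamine rested on them.

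The means of the other 7 genes were closer to 0, between −0.18 and 0.10 in the 4 conditions. SAT1 had means of −0.02 in siGL2, 0.06 in siCTU2, 0.02 in pQ and −0.04 in mQ. None of the 8 genes passed the limma test of the index between conditions, and none had an unadjusted p under 0.05, beside 0.0% of the 12263 and of the 12395 genes tested that were called (969 and 521 at an unadjusted p under 0.05). Without the libraries with extra genes the index again called 0 genes in both experiments (907 and 1466 at an unadjusted p under 0.05), with none of the 8 genes at an unadjusted p under 0.05. With each arm divided by its own 0 h library, it called 3 genes in the siRNA experiment and 466 in the medium experiment (45 higher and 421 lower), none of them a polyamine gene, although 4 of the 8 had an unadjusted p under 0.05 in the latter.

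Of 26 other genes of polyamine supply, oxidation, transport, hypusine formation and methionine salvage, 19 to 21 passed the filter on low counts, depending on the comparison. ARG1, AGMAT, SATL1 and ATP13A2 were at 0 in most libraries. At 0 h, CTU2 knockdown raised 7 of 20 and lowered 4, beside 17.8% of all genes called higher and 18.2% called lower. The largest changes were in the polyamine-linked transporter SLC12A8 (log2 fold change 2.08, SE 0.66), the antizyme inhibitor AZIN2 (1.14, SE 0.37) and the amino acid transporter subunit SLC3A2 (1.09, SE 0.11). SLC12A8 had only 44, 26 and 21 counts against 0, 10 and 7, whereas SLC3A2 was at 392.1, 412 and 280.3 CPM against 163, 180.2 and 165 CPM.

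Without glutamine, 3 of 19 rose and 5 fell at 0 h, beside 12.5% of all genes called higher and 12.4% called lower. The largest changes were the fall of the methionine salvage enzyme APIP (−1.76, SE 0.23), from 26.3, 33.3 and 25.2 CPM in pQ to 7.30, 5.80 and 11.1 CPM in mQ, and the rise of SLC3A2 (1.45, SE 0.15) and of the spermine oxidase SMOX (1.22, SE 0.22). SMOX was at 16.8, 21.0 and 26.1 CPM in mQ against 11.7, 8.31 and 8.60 CPM in pQ. The synthase of spermine (SMS) was therefore lower and its oxidase higher in the same libraries.

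In the decay tests, 4 of 20 other genes were called in siCTU2, 3 of 20 in siGL2 and 8 of 19 in mQ, all lower, and 8 lower and 1 higher of 20 in pQ. MAT2A, which makes the S-adenosylmethionine that AMD1 uses, had the largest or second largest change in each condition, from −1.12 (SE 0.33) in mQ to −2.19 (SE 0.30) in pQ, with −1.81 (SE 0.39) in siCTU2 and −1.67 (SE 0.38) in siGL2. The other genes with the largest changes were MTAP (−0.89) and MAT2B (−0.87) in siCTU2, SLC18B1 (−0.81) and SAT2 (−0.68) in siGL2, DOHH (−1.20) and SMOX (−0.88) in mQ, and SMOX (−1.04) in pQ. The 1 gene called higher in pQ, EIF5A (3.13, SE 1.28), rests on 1 library with 163 counts beside 2 to 7 in the other 5 and was at −0.60 without replicate 1. EIF5A has near-identical copies in the genome, so its counts are uncertain. Cycloheximide raised MAT2A in pQ (0.70, SE 0.21, adjusted p = 0.0307) and SAT2 in siGL2 (0.38, SE 0.11, adjusted p = 0.0315) and no other gene of the list. Of all genes, 12.3% were called higher in pQ, 12.1% in siGL2, 21.0% in siCTU2 and 5.12% in mQ. No gene of the list was called in the difference tests or for the TDD index.

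Across the 24 group means of log2 CPM, the genes most like each polyamine gene among 9779 genes were found by Pearson's r, as a description, since the groups share cells, libraries and time course. AMD1 was most like NRIP1 (r = 0.978) and PPARGC1B (0.975), and SMS most like ADAM19 (0.984) and LINC00707 (0.977). SRM was most like SNU13 (0.963) and TAF10 (0.958), OAZ2 most like STIP1 (0.964) and FLOT2 (0.954), and OAZ1 most like MAP4K4 (0.944) and MDH2 (0.933). ODC1 was most like C9orf78 (0.945) and CKLF (0.922), AZIN1 most like MUS81 (0.949) and RPAIN (0.914), and SAT1 most like SPTLC2 (0.925) and HOXB5 (0.918). None of the 8 polyamine genes was among the 2 genes most like another of them.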

How the data were processed

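The authors deposited 1 table of read counts per gene. Per the labels and the study's methods, reads were trimmed with fastp 0.20.1, aligned to GRCh38.p13 with HISAT2 2.2.1 and counted with HTSeq 0.13.5. No step that collapses duplicates is stated, so each count is a read, not a molecule. Spike-in RNA was added but is not used here, so levels are relative.

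All 8 genes were chosen by symbol, and they, the list of 26 other genes and the tests were chosen with earlier results of these data known. Named from that list are the 3 called genes with the largest change per comparison, and the 2 genes most like each polyamine gene over the 24 group means of log2(CPM + 1) among genes with a mean of at least 50 counts.

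Tests used edgeR 4.0.16 (quasi-likelihood, genes filtered with filterByExpr) with Benjamini-Hochberg adjustment over all genes tested and a threshold of 0.05: 6 libraries with TMM at 0 h, and 18 libraries per condition or 36 per experiment for decay and cycloheximide. The latter were scaled to stable genes by the study's rule: over 0.2 CPM at 0 h and a CPM at 3 or 5 h at least 1.1 times that at 0 h in all replicates, with the 0 h CPM over 0.1 times the later one. The TDD index (at least 10 scaled counts at 0 h in both conditions) was tested with limma 3.58.1 on 12 values per gene with replicate and time as terms. DESeq2 1.42.0 was an alternative. The stable genes and their factors came from all 36 libraries of an experiment and were kept when libraries were left out. The 95% intervals are the estimate ± 1.96 SE, a multiplier for large samples. They are approximate and can exclude 0 where the test gives a p over 0.05. The count tests were tested on simulated data first. GENCODE v44 gave transcripts and coordinates, RefSeq the promoters.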

Additional observations from a re-analysis of the deposited data

How the results depend on the processing

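Of 619 recomputed values of named genes, 504 kept their direction and side of the threshold, 16 gained a call, 72 lost one and 27 changed sign, while AMD1 kept its calls in 84 of 85. Counts of called polyamine genes moved by over 1.5 times as follows. With TMM scaling, decay calls went from 5 to 1 in mQ and from 5 to 2 in pQ, and cycloheximide calls from 1 to 2 in siCTU2 (OAZ1 added, −0.42) and from 0 to 2 in mQ (AMD1 0.96, SMS −0.41). Among all genes, decay calls went from 7599 to 981 of 13442 in mQ and from 7510 to 1243 of 13347 in pQ. All-gene cycloheximide calls went from 2881 to 2381 of 13638 in siCTU2 and from 704 to 1193 of 13442 in mQ. At 5 h in place of 3 h, decay calls were 5 in siCTU2 and 2 in mQ, beside 8888 of 13638 and 6087 of 13442 genes. Leaving out a replicate gave 2 to 5 decay calls in siCTU2, 2 to 6 in siGL2, 2 to 5 in mQ and 2 to 8 in pQ, the highest counts of siCTU2, siGL2 and pQ without replicate 3, and 1 to 2 cycloheximide calls in siGL2 and pQ and 0 to 1 in mQ. Over all genes (13174 to 13861 tested), these decay calls ran from 1182 to 5892 in siCTU2 and from 1277 to 6171 in siGL2. They ran from 2047 to 7733 in mQ and from 3272 to 8621 in pQ. The cycloheximide calls ran from 688 to 2576 in siGL2, 754 to 2246 in pQ and 1 to 3286 in mQ. Cycloheximide calls in mQ were also 1 with no filter, with DESeq2 and without the libraries with extra genes, and those in pQ were 0 at 3 h alone. Over all genes, these calls were 1548 of 25416, 1165 of 13442 and 2916 of 13639 in mQ, and 380 of 13347 in pQ. The cause was not tested.

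Signs changed for OAZ2 in the TCHX arm (0.13 for the knockdown, −0.12 for glutamine, −0.060 without the library with extra genes) and for AZIN1 for glutamine there (0.34 and 0.29). They changed with TMM scaling for the decay of OAZ1 (0.32 in mQ, 0.14 in pQ) and SMS (0.12 in pQ) and for the cycloheximide effect on SAT1 in pQ (−0.029). At 5 h the AMD1 decay difference for glutamine was 1.00 and the EIF5A change in pQ −0.999. The AMD1 cycloheximide difference for glutamine was 0.45 at 3 h alone and 0.35 without the libraries with extra genes, and that for the knockdown −0.052 without them. Leaving out a replicate, the ranges that crossed 0 were −0.061 to 0.072 (SRM, knockdown), −0.29 to 0.035 (SRM, glutamine), −0.0051 to 0.059 (OAZ1, glutamine), −0.025 to 0.094 (SAT1 cycloheximide effect, pQ) and −0.60 to 3.25 (EIF5A decay, pQ). For AMD1 they were −0.20 to 0.58 and −0.64 to 0.42 for the cycloheximide differences, and −0.14 to 0.027 and −0.15 to 0.043 for the TDD index, knockdown first. Without the libraries with extra genes the TDD index difference for glutamine was 0.043.

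The shares left and the TDD index combined libraries of the same replicate number, and the TDD test had a replicate term. In the deposited counts all libraries of a number share a name prefix, and no source used here says what it marks. The main edgeR tests did not take the numbers as pairs, since the labels do not say what a number marks. Nor did every same-numbered pair of deviations correlate over 0.1. In the T arm at 0 h 2 of 3 pairs did (siRNA) and 1 of 3 (medium), and over all groups 151 of 198 (median r 0.19) and 139 of 198 (median r 0.19), so a shared effect of the number cannot be set aside. With the replicate block, 6 genes were called for the knockdown (OAZ2 and SAT1 added), 3 for glutamine and 6 for decay in pQ, and without the block the TDD index still gave 0. Over all genes, the block gave 5101 of 12292 for the knockdown, 2463 of 12374 for glutamine and 9340 of 13347 for decay in pQ.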
